A study of Mus musculus with 12 samples.

Results

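Platelet-derived growth factor (PDGF), the chemokine CXCL12 and apelin are secreted ligands that guide early mesoderm through receptors on its cells. The genes described here are 5 receptors (Pdgfra, Pdgfrb, Cxcr4, Ackr3 and Aplnr) and 3 ligands (Pdgfa, Cxcl12 and Apln), 8 of the 35856 rows of the expression table. They were taken by symbol, and the set was chosen from earlier results of these same libraries, so their differences with auxin are given as a description, with no test of their own, and nothing is read from how many of them passed the threshold. All 8 passed the filter on low values.

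RNA was measured in cardiac precursors made from C57BL/6 mouse embryonic stem cells. Every line carries Tir1, the plant receptor that sends a protein with an auxin-inducible degron (AID) tag for degradation once auxin is present. The SUZ12-AID line has the tag on SUZ12, a core subunit of Polycomb repressive complex PRC2, which places methyl groups on lysine 27 of histone H3. MTF2-AID and AID-JARID2 have it on MTF2 or JARID2, accessory subunits that bring PRC2 to its sites. Each line was grown untreated or with the auxin analog indole-3-acetic acid at 50 µM, called auxin here, with 2 libraries in each of the 6 groups. When auxin was added is not given in the sources used here. Cells spent 48 h as embryoid bodies, 43 h reaggregated with VEGF, Activin A and BMP4, and 32 h as a monolayer with VEGF and fibroblast growth factors. Each subunit was tagged in 1 line, and an untagged line with auxin is not analysed here, so the depletion of a subunit cannot be told apart from other effects of auxin or of that line. The study calls its 2 libraries per group biological replicates. Whether they came from separate cultures is not stated, and p-values measure the spread between these libraries only.

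As background, PDGFRA and PDGFRB are receptor tyrosine kinases. PDGFRA marks cardiac and paraxial mesoderm, and PDGFRB marks mesenchyme and the mural cells around vessels. PDGF-A, the product of Pdgfa, acts through PDGFRA, while PDGF-B can act through both receptors. CXCR4 is the signalling receptor of CXCL12, and ACKR3, also called CXCR7, binds the same chemokine and removes it from the surroundings. APLNR is the receptor of apelin (Apln) and of a second peptide, Apela, also known as ELABELA or Toddler, which directs mesoderm and endoderm cells during gastrulation and heart formation.

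Values are in TPM, a unit corrected for transcript length and sequencing depth that can be compared between genes. Differences are on the log2(TPM + 1) scale, with the standard error (SE) of a limma fit over all 12 libraries and 15663 genes, and a gene was called when its p, adjusted over all of those genes, was under 0.05. Recovered reads per library ranged from 10138920 to 17173072. The mRNA of the tagged gene does not report the protein. Suz12 was at 113 and 127 TPM untreated and 106 and 109 TPM with auxin in SUZ12-AID, Mtf2 at 22.4 and 21.7 against 26.0 and 24.7 TPM in MTF2-AID, and Jarid2 at 45.3 and 43.5 against 104 and 113 TPM in AID-JARID2.

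Marker genes of several cell types moved with auxin in AID-JARID2 and in SUZ12-AID. Of all genes, 19.5% were called higher and 17% lower in AID-JARID2, 15.1% and 4.05% in SUZ12-AID, and 0.0447% and 0.0192% in MTF2-AID. These shares rest on the shared estimate of spread. AID-JARID2 had the highest variance weight (1.544), then MTF2-AID (1.294) and SUZ12-AID (0.5), so SUZ12-AID libraries varied most. With a weight per line, calls in SUZ12-AID went from 2362 higher and 635 lower to 979 and 215. Those of MTF2-AID went from 7 and 3 to 55 and 109, and those of AID-JARID2 from 3053 and 2657 to 3989 and 3523. With each line alone SUZ12-AID had 129 and 27, and MTF2-AID had 0 and 0. Summed TPM of 14 cardiac precursor and lateral mesoderm markers went from 3166 to 3229 in untreated AID-JARID2 to 435 to 509 with auxin, and 12 of the 13 markers kept in the fit were lower and none higher. In the same line the 10 pluripotency markers went from 914 to 923 TPM up to 4023 to 4073 TPM, with 9 higher and 1, Klf4, lower. The 14 endothelial markers summed to 38.9 to 42.0 TPM untreated and 28.8 to 34.2 TPM with auxin there, with 4 higher (Esam, Robo4, Cd34 and Plvap) and 2 lower (Pecam1 and Etv2). Pecam1 alone went from 18.0 and 20.6 TPM to 3.01 and 2.35 TPM, and Emcn was at 0 in all 4 libraries. In SUZ12-AID the cardiac markers went from 2980 to 3331 TPM to 1757 to 1839 TPM. Of these markers, 5 were higher (Hand2, Gata4, Nkx2-5, Mef2c and Kdr) and 3 lower (Hand1, Foxf1 and Bmp4). Hand1 alone, which makes up most of this sum, went from 2291 and 2552 TPM to 1077 and 990 TPM. The endothelial markers of SUZ12-AID went from 131 to 154 TPM to 226 to 238 TPM, with 12 higher and 1 lower. All 7 epithelial markers kept in the fit and 7 of the 10 pluripotency markers were higher there too, and 4 blood markers were lower. In MTF2-AID the cardiac markers summed to 2056 to 2060 TPM untreated and 2111 to 2123 TPM with auxin, and none was called. Its endothelial markers summed to 155 to 166 TPM and then 91.9 to 102 TPM, also with none called, and its blood markers to 32.2 to 37.5 TPM and then 12.5 to 18.2 TPM, with Itga2b called lower. Among its epithelial markers Krt8 was called higher. Primitive streak markers already summed to 993 to 1007 TPM in untreated AID-JARID2, against 130 to 137 TPM in the other untreated lines. Paraxial mesoderm markers summed to 229 to 234 TPM there and 20.4 to 39.9 TPM in the others. With auxin AID-JARID2 had 88.9 to 93.6 TPM of them, with 3 lower and 1 higher. Its smooth muscle and fibroblast markers went from 233 to 244 TPM to 284 to 289 TPM, with 3 higher and 3 lower. Its neural markers went from 68.0 to 70.4 TPM to 296 to 311 TPM, with 3 higher and none lower. Of its epithelial markers 5 were higher and 2, Krt8 and Krt18, lower. The part that these shifts have in the levels below was not tested, and fewer cells of a type cannot be told apart from less RNA per cell.

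In AID-JARID2, all 5 receptors were lower with auxin, while the ligands Cxcl12 and Apln were higher and Pdgfa was not called. Of all genes, 17% were called lower and 19.5% higher in that line. In MTF2-AID none of the 8 was called, where only 0.0447% of all genes were higher and 0.0192% lower. In SUZ12-AID 5 were called, 3 higher and 2 lower, beside 15.1% and 4.05% of all genes. The following paragraphs take the 3 systems in turn.

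**Figure D1:**
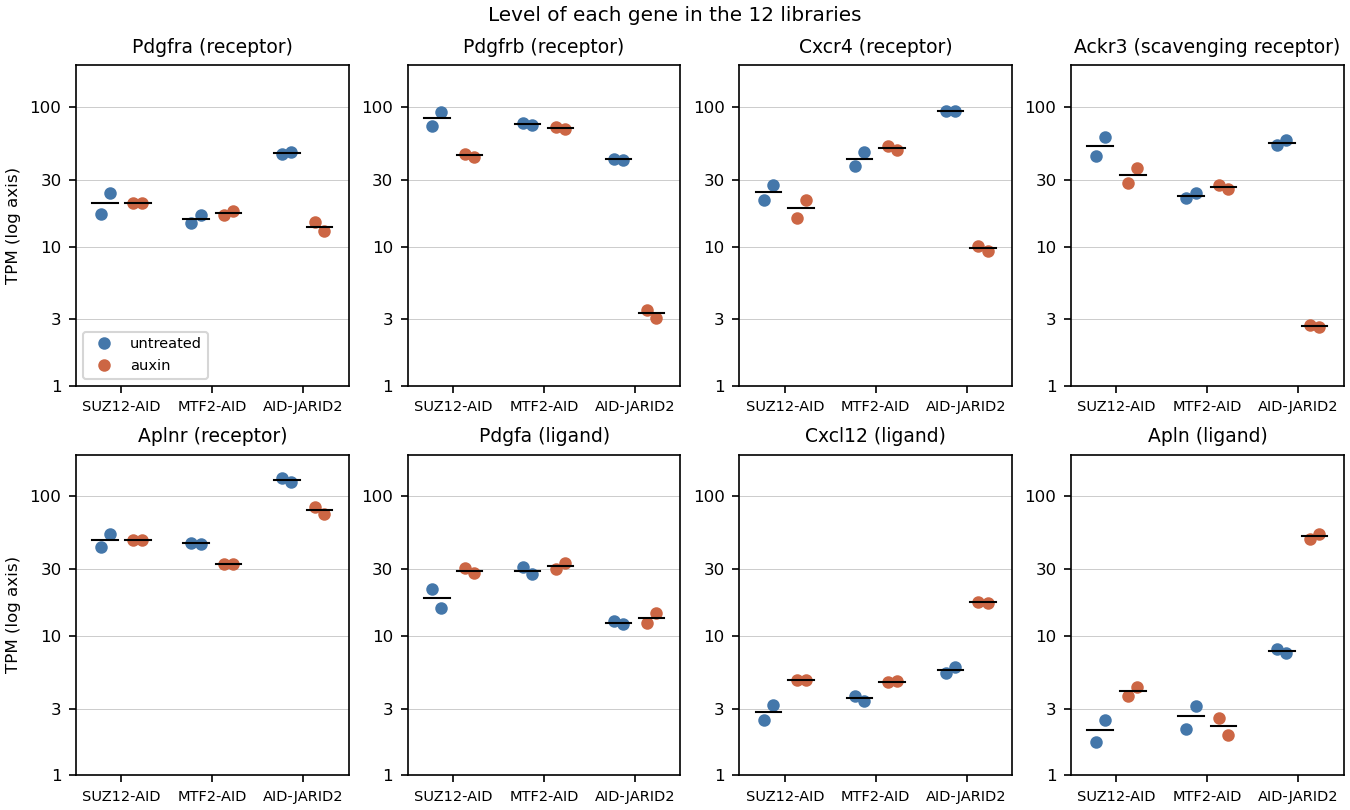
TPM of the 5 receptors and 3 ligands in each of the 12 libraries on a log axis, with untreated libraries in blue, auxin libraries in orange and a black bar at the mean of the 2 libraries of a group. In AID-JARID2 the auxin libraries of Ackr3 (2.75 and 2.63 TPM) and Pdgfrb (3.53 and 3.09 TPM) lie below every other library of those genes, and those of Apln (49.3 and 54.2 TPM) and Cxcl12 (17.4 and 17.3 TPM) above every other library.

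Among the PDGF genes, Pdgfrb had the widest range of the 8, apart from Apln, from 3.09 to 92.9 TPM over the 12 libraries. It lay at 42.5 and 41.9 TPM in untreated AID-JARID2 and at 3.53 and 3.09 TPM with auxin. The mean TPM of the groups stood 12.7-fold apart. The difference on the log2(TPM + 1) scale, where the added 1 shrinks differences at low levels, was -3.33 ± 0.10 (SE). In SUZ12-AID, Pdgfrb was at 73.7 and 92.9 TPM untreated and 45.8 and 44.2 TPM with auxin, again with no overlap, and the difference of -0.86 ± 0.10 was called. MTF2-AID kept a high level, 76.6 and 74.1 TPM untreated and 71.7 and 69.6 TPM with auxin, and its difference of -0.09 ± 0.10 was not called.

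Pdgfra behaved differently between the lines. Its untreated level was highest in AID-JARID2, at 46.1 and 47.9 TPM, and with auxin it was 14.9 and 12.9 TPM, a log2 difference of -1.69 ± 0.14. The libraries of SUZ12-AID overlapped, with 17.2 and 24.1 TPM untreated and 20.5 and 20.4 TPM with auxin, as did those of MTF2-AID, with 14.7 and 16.9 TPM untreated and 16.9 and 18.0 TPM with auxin. With auxin, AID-JARID2 thus had the lowest mean of the 6 groups, with 1 library between the untreated values of MTF2-AID and the other below every library of the other lines. Pdgfrb outweighed Pdgfra in both other lines and in every library, whereas in AID-JARID2 the levels were alike when untreated and Pdgfra was the higher of the pair with auxin. The log2 ratio of Pdgfra to Pdgfrb was 0.12 and 0.19 in untreated AID-JARID2 and 1.81 and 1.76 with auxin, against -2.04 and -1.90 in untreated SUZ12-AID.

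Pdgfa, the ligand of PDGFRA, was the steadiest of the 8 in AID-JARID2, at 12.8 and 12.1 TPM untreated and 12.4 and 14.6 TPM with auxin. In SUZ12-AID it was at 21.6 and 15.8 TPM untreated and 30.4 and 28.2 TPM with auxin, and the difference of 0.64 ± 0.14 was called higher. MTF2-AID libraries overlapped at 31.0 and 27.6 TPM against 30.1 and 33.2 TPM.

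In the CXCL12 system, Ackr3 showed the largest difference of the 8. Its level in AID-JARID2 was 53.4 and 58.0 TPM untreated and 2.75 and 2.63 TPM with auxin, 20.7-fold lower by mean TPM. The auxin libraries held 36 and 40 recovered reads of it. The log2 difference was -3.94 ± 0.15. In SUZ12-AID, Ackr3 was at 44.3 and 61.0 TPM untreated and 28.5 and 36.9 TPM with auxin, a called difference of -0.67 ± 0.15 with no overlap. In MTF2-AID it was lower from the start, at 22.1 and 24.1 TPM untreated, and 27.5 and 25.9 TPM with auxin.

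Cxcr4, the signalling receptor, was at 93.3 and 94.5 TPM in untreated AID-JARID2, the highest of the 6 groups, and at 10.2 and 9.31 TPM with auxin, the lowest. Its log2 difference was -3.15 ± 0.16, and its mean TPM was 9.65-fold lower with auxin. Untreated and auxin libraries of SUZ12-AID overlapped by a narrow margin, 21.4 and 27.6 TPM against 16.1 and 21.5 TPM, and the difference of -0.37 ± 0.16 was not called, though it was with median-of-ratios scaling (-0.459) or quantile normalization (-0.487). MTF2-AID had 37.6 and 47.9 TPM untreated and 53.0 and 49.2 TPM with auxin, a difference of 0.26 ± 0.16 that was not called.

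Cxcl12, their shared ligand, was low everywhere but in AID-JARID2 with auxin. There it was at 17.4 and 17.3 TPM, against 5.43 and 6.00 TPM untreated, a log2 difference of 1.45 ± 0.13. SUZ12-AID libraries were at 2.49 and 3.18 TPM untreated and 4.78 and 4.81 TPM with auxin, a called difference of 0.60 ± 0.13, and those of MTF2-AID at 3.73 and 3.38 TPM and at 4.64 and 4.71 TPM, a difference of 0.32 ± 0.13 that was not called. Ligand and receptors thus changed in opposite directions in AID-JARID2. The log2 ratio of Cxcr4 to Cxcl12 was 3.87 and 3.77 in the untreated libraries and -0.72 and -0.83 with auxin, and that of Ackr3 to Cxcl12 was 3.08 in both untreated libraries and -2.29 and -2.33 with auxin. In the 10 other libraries each receptor exceeded the ligand.

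The apelin genes had the same opposite directions but a different endpoint. Aplnr was at 135 and 127 TPM in untreated AID-JARID2 and at 84.3 and 74.8 TPM with auxin, a log2 difference of -0.72 ± 0.09, and even the lower of these groups lay above all libraries of the other lines. In SUZ12-AID it was at 43.5 and 53.5 TPM untreated and 49.0 and 48.7 TPM with auxin, which overlapped. MTF2-AID libraries did not overlap, with 46.2 and 45.8 TPM untreated and 33.0 and 32.6 TPM with auxin, but the difference of -0.48 ± 0.09 was not called. It was called when either untreated SUZ12-AID library, which adds to the shared spread, was left out.

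Apln rose from 8.01 and 7.47 TPM to 49.3 and 54.2 TPM in AID-JARID2, a log2 difference of 2.59 ± 0.18. In SUZ12-AID it was at 1.72 and 2.51 TPM untreated and 3.70 and 4.29 TPM with auxin, a called difference of 0.69 ± 0.18. MTF2-AID libraries overlapped at 2.16 and 3.12 TPM against 2.57 and 1.93 TPM. The log2 ratio of Aplnr to Apln was 3.92 in both untreated AID-JARID2 libraries and 0.76 and 0.46 with auxin, so the receptor still exceeded this ligand.

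**Figure D2:**
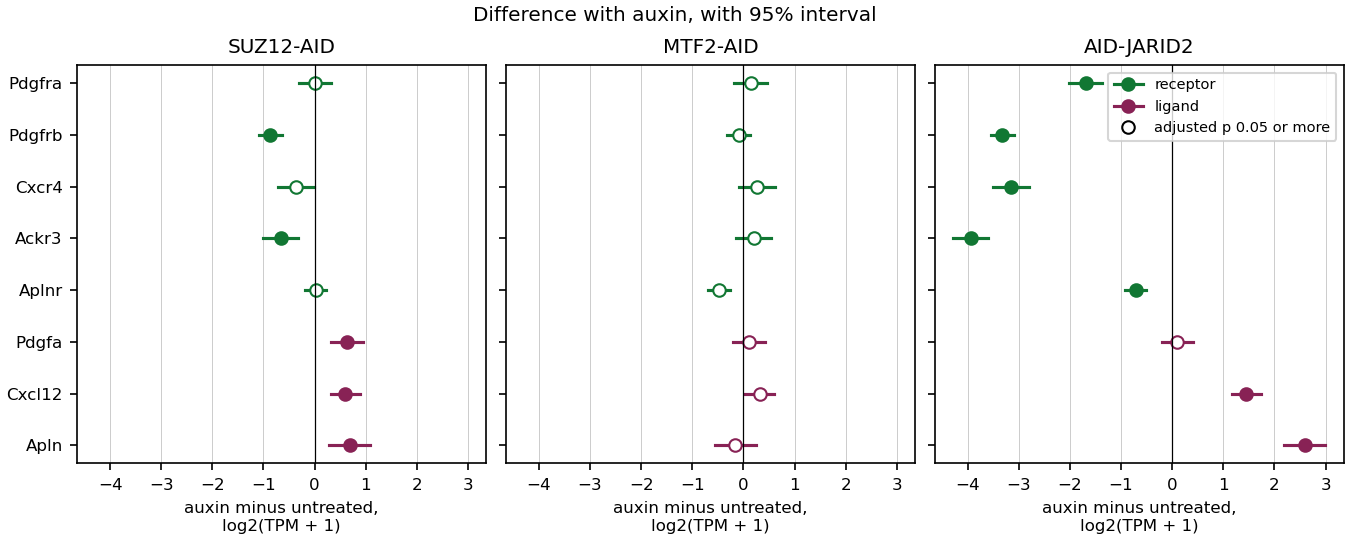
Difference between auxin and untreated on the log2(TPM + 1) scale for each gene in the 3 lines, with receptors in green, ligands in purple and bars for the 95% interval of the fit. Open circles mark differences with an adjusted p of 0.05 or more. In AID-JARID2 the 5 receptors lie between -3.94 and -0.72 and the 3 ligands between 0.10 and 2.59.

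Over the set, 2 of 8 genes were called higher and 5 lower in AID-JARID2, where 19.5% and 17% of all genes were. In SUZ12-AID 3 were called higher (Pdgfa, Cxcl12 and Apln) and 2 lower (Pdgfrb and Ackr3), beside 15.1% and 4.05% of all genes. In MTF2-AID limma called 0 of 8 in either direction, beside 0.0447% higher and 0.0192% lower of all genes. There, 2 of the 8 had an unadjusted p under 0.05, and limma-voom on the recovered reads also called 0. The median difference of the 8 was -1.20 in AID-JARID2, 0.01 in SUZ12-AID and 0.12 in MTF2-AID, against 0.01, 0.06 and 0.01 over all genes. The 7 calls in AID-JARID2 held in all 22 alternative analyses. The 5 in SUZ12-AID did not. Pdgfrb was called in 21 of the 22, Ackr3 in 19, Pdgfa and Cxcl12 in 18 each and Apln in 16. Some of the calls in that line ended on leaving out 1 library. There the call of Pdgfa ended without auxin replicate 1 (log2 difference 0.585), that of Cxcl12 without auxin replicate 2 (0.60), that of Apln without untreated replicate 1 (0.51) or auxin replicate 2 (0.61), and that of Ackr3 without untreated replicate 2 (-0.441) or auxin replicate 1 (-0.485). Under other scalings the split of all SUZ12-AID calls moved from 78.8% higher to 57.6% with median-of-ratios scaling and to 53.1% with quantile normalization.

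**Figure D3:**
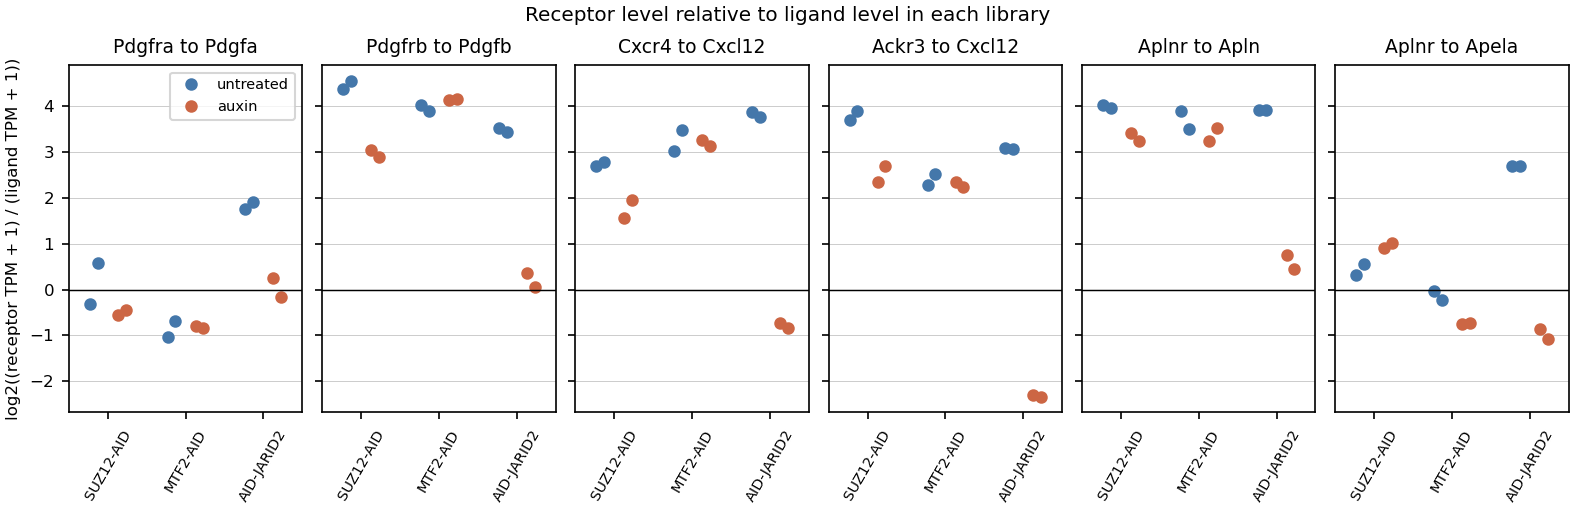
Log2 ratio of receptor to ligand TPM, each plus 1, in every library, with untreated libraries in blue and auxin libraries in orange, and a line at 0, where both levels are equal. In AID-JARID2 every ratio is lower with auxin, and those of Cxcr4 and Ackr3 to Cxcl12 and of Aplnr to Apela lie below 0 in both auxin libraries.

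The receptor-to-ligand ratios describe each system in a single number. In AID-JARID2 the mean log2 ratio of Pdgfra to Pdgfa went from 1.84 to 0.04 and that of Pdgfrb to Pdgfb from 3.48 to 0.21, with the receptors called lower and the ligands Pdgfa and Pdgfb not called. The Cxcr4 to Ackr3 ratio, the signalling over the scavenging receptor, went from 0.74 to 1.54. In SUZ12-AID all 6 receptor-to-ligand ratios other than Aplnr to Apela were also lower with auxin, going from 3.80 to 2.53 for Ackr3 to Cxcl12, from 2.73 to 1.76 for Cxcr4 to Cxcl12, from 4.00 to 3.32 for Aplnr to Apln from 4.46 to 2.97 for Pdgfrb to Pdgfb, from 0.13 to -0.50 for Pdgfra to Pdgfa and from 1.25 to 1.00 for Pdgfra to Pdgfc. In that line Pdgfrb was lower and Pdgfb higher with auxin, and the ratio of Aplnr to Apela went the other way, from 0.45 to 0.96. The largest move in MTF2-AID was of Aplnr to Apela, from -0.12 to -0.74. With 2 libraries against 2, an exact permutation test of a single ratio cannot give a two-sided p below 0.333, so none is reported.

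The effects of auxin were compared between lines within the same fit. Between AID-JARID2 and SUZ12-AID the effect differed for 7 of the 8 genes, where 24% of all genes differed, and Pdgfa was the exception, at -0.53 (95% interval -0.97 to -0.09, limma adjusted p = 0.078), which was called without untreated SUZ12-AID replicate 1 (-0.745). Between AID-JARID2 and MTF2-AID it differed for 6, beside 24.3% of all genes. The exceptions were Pdgfa, with an interval of -0.44 to 0.44, and Aplnr, at -0.24 with an interval of -0.54 to 0.06. MTF2-AID and SUZ12-AID differed in Pdgfrb, Ackr3 and Aplnr, 3 of 8 beside 11.1% of all genes. These 3 comparisons share their libraries in pairs.

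Untreated lines also differed, so the effects started from different levels. Between untreated AID-JARID2 and MTF2-AID all 8 genes differed, beside 33.4% of all genes. Pdgfra (1.52 ± 0.14, SE, on the log2 scale), Aplnr (1.49 ± 0.09), Apln (1.28 ± 0.18), Ackr3 (1.24 ± 0.15), Cxcr4 (1.13 ± 0.16) and Cxcl12 (0.56 ± 0.13) were higher in AID-JARID2, and Pdgfa (-1.17 ± 0.14) and Pdgfrb (-0.82 ± 0.10) lower. The call of Cxcl12 ended without untreated AID-JARID2 replicate 2 (0.499). Against untreated SUZ12-AID, 7 of 8 differed, beside 27.6% of all genes, with Cxcr4 highest at 1.91 ± 0.16, and Ackr3 was not called at 0.10 ± 0.15. The call of Pdgfa there ended without untreated SUZ12-AID replicate 1 (-0.324) or either untreated AID-JARID2 library (-0.575 and -0.495). Untreated MTF2-AID and SUZ12-AID differed in 3, beside 8.65% of all genes. Ackr3 was lower in MTF2-AID by a log2 difference of -1.14 ± 0.15, and Cxcr4 (0.78 ± 0.16) and Pdgfa (0.64 ± 0.14) were higher. The call of Pdgfa ended with median-of-ratios scaling (0.56), with quantile normalization (0.548) and without either untreated MTF2-AID library (0.55 and 0.72), and that of Cxcr4 without untreated MTF2-AID replicate 2 (0.61) or untreated SUZ12-AID replicate 1 (0.60). Pdgfra, not called at -0.35 ± 0.14, was called with quantile normalization (-0.448), with limma-voom (-0.442) and without untreated SUZ12-AID replicate 1 (-0.583). These untreated libraries are also the controls of the auxin comparisons.

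Of the 8 genes, those of the CXCL12 and apelin systems with a log2 difference above 1 in either direction in AID-JARID2 are printed here with the 250 bases before their RefSeq transcript start (GRCm38.p6, the build also called mm10), to set beside their opposite directions. They are written 5′ to 3′ on the strand of the gene, with each CG in capitals, since CG-rich starts are typical of PRC2 target genes. The windows are chr1:90203730-90203979 on the plus strand for Ackr3, chr1:128592300-128592549 on the minus strand for Cxcr4, chr6:117168285-117168534 on the plus strand for Cxcl12 and chrX:48034854-48035103 on the minus strand for Apln.
Ackr3: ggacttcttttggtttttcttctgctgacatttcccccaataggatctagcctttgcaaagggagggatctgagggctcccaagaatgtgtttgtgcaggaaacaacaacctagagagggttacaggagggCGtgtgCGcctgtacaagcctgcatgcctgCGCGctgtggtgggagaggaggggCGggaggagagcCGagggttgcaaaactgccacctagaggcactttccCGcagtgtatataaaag
Cxcr4: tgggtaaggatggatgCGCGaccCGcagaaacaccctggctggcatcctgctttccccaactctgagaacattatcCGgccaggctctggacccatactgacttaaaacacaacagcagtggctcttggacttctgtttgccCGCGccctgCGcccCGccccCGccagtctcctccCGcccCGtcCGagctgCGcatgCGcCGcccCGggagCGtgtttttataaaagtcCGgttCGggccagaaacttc
Cxcl12: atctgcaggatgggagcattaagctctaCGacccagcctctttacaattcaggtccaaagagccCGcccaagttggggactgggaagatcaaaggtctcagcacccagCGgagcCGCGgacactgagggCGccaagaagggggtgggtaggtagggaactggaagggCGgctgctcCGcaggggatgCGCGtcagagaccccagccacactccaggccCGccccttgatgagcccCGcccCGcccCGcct
Apln: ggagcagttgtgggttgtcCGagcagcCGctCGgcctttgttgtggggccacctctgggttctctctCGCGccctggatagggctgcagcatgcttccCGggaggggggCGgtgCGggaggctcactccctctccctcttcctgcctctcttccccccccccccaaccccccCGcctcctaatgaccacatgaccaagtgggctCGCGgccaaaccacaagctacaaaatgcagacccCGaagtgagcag

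All 4 windows, of 2 genes lower and 2 higher with auxin, hold more CG than the median window, Ackr3 by little. Of all windows, 53.7% hold fewer CG than that of Ackr3, 66.5% fewer than Apln, 70.6% fewer than Cxcl12 and 80.3% fewer than Cxcr4. The counts of CG are 7 for Ackr3, 19 for Cxcr4, 14 for Cxcl12 and 12 for Apln, against a median of 6 over 32851 RefSeq windows of this length. Pdgfra, also lower with auxin in AID-JARID2, had 4, below the median, and the 2 listed starts of Pdgfa had 19 and 28. Windows of 6 of the 8 genes were used. Those on chromosome 18, where Pdgfrb lies, were left out, and none was matched to Aplnr by symbol. The motif GGGCGG, the GC box, was searched on both strands and matched 1 time in Ackr3, 3 times in Cxcr4, 5 times in Cxcl12 and 1 time in Apln, and 32.7% of all windows hold it. TATAAA matched in Ackr3 (1) and Cxcr4 (2) and in 12.4% of all windows, and CCAAT in Ackr3 alone of the 4 and in 33.8% of all windows. The 2 matches in Cxcr4 overlap in 1 stretch, tttataaa, which matches on both strands. A match is a run of letters, and binding was not measured here.

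In mm10 with GENCODE annotation, all 8 are protein-coding genes. Pdgfra spans chromosome 5, 75152292 to 75198215, on the plus strand, and Kit and Kdr, which encode the receptors of stem cell factor and of VEGF, lie 376701 and 734612 bp away on the same chromosome. All 3 of these kinase receptor genes were lower with auxin in AID-JARID2, while Chic2 on the other side of Pdgfra was at 23.3 and 21.9 TPM untreated and 21.4 and 21.3 TPM with auxin and was not called. Kit was at 10.2 and 10.1 TPM and then 5.38 and 5.66 TPM (log2 difference -0.78 ± 0.13, limma adjusted p = 0.000942), and Kdr at 127 and 127 TPM and then 19.2 and 15.0 TPM (-2.83 ± 0.15, adjusted p = 5.1e-07). Next to Ackr3, which spans chromosome 1, 90203980 to 90216751, Cops8 was at a mean of 200.3 TPM untreated and 199 TPM with auxin in that line and was not called. Some neighbours of Cxcr4 and Aplnr were called lower there, beside 17% of all genes. These were Mcm6 (-0.33 ± 0.05, adjusted p = 0.000942) and Dars (-0.36 ± 0.07, adjusted p = 0.00328) beside Cxcr4 and Tnks1bp1 (-0.38 ± 0.09, adjusted p = 0.0106) beside Aplnr. Ssrp1 (-0.03 ± 0.05) and Lrrc55 (0.25 ± 0.17), also beside Aplnr, were not called. Mcm6 (-0.31 ± 0.05) and Tnks1bp1 (-0.39 ± 0.09) were called lower in SUZ12-AID too, where Cxcr4 and Aplnr were not. Pdgfa lies on chromosome 5 from 138976014 to 138997370 on the minus strand, and Aplnr on chromosome 2 from 85136225 to 85139923 on the plus strand. Antisense transcripts overlap Pdgfra (Gm42802) and Pdgfa (6330403L08Rik). The libraries keep strand, but whether the counting used it is not given in the sources used here.

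Of 82 other gene symbols listed for these and related systems, 80 were in the table and 41 passed the filter. Grk2 and Pcsk3 were not found under those symbols, and other names for them were not searched. In AID-JARID2, 15 of the 41 rose and 7 fell, beside 19.5% higher and 17% lower of all genes, in SUZ12-AID 13 rose and 3 fell, beside 15.1% and 4.05%, and in MTF2-AID limma called 0, with 7 at an unadjusted p under 0.05, and limma-voom called 0. The median difference was 0.12 in AID-JARID2, 0.36 in SUZ12-AID and -0.02 in MTF2-AID. In AID-JARID2, 15 of the 22 calls held in every alternative and 7 ended without 1 library (Cd74, Cx3cl1, Cxcl10, Cxcl16, Furin, Gnai1 and Pdgfrl). In SUZ12-AID only Ramp2 held in every alternative, and 10 of 16 calls ended without 1 library (Ackr1, Arrb2, Cxcl14, Cxcl16, Flt1, Furin, Kdr, Mif, Pdgfb and Rgs16). Kdr is also among the cardiac precursor and lateral mesoderm markers above.

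Apela, the second ligand of APLNR, was called in opposite directions in AID-JARID2 and SUZ12-AID. It rose in AID-JARID2 from 19.9 and 18.7 TPM to 154 and 160 TPM (log2 difference 2.96 ± 0.08, limma adjusted p = 3.8e-09) and fell in SUZ12-AID from 34.5 and 35.7 TPM to 25.6 and 23.7 TPM (-0.49 ± 0.08, adjusted p = 0.00198). The SUZ12-AID call ended when that line was fitted alone (adjusted p = 0.0861). In AID-JARID2 the log2 ratio of Aplnr to Apela went from 2.70 in both untreated libraries to -0.86 and -1.08, so that this ligand exceeded the receptor. Furin, a protease that processes proapelin, was called higher in SUZ12-AID (0.36 ± 0.09, adjusted p = 0.0202) and lower in AID-JARID2 (-0.28 ± 0.09, adjusted p = 0.0327).

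The PDGF list also holds genes of the VEGF system and other receptor kinases. The PDGF ligands in it, Pdgfb, Pdgfc and Pdgfd, were not called in AID-JARID2. Of the 13 genes of this list, 4 rose (Pdgfrl, Shb, Flt1 and Flt4) and 4 fell (Nrp1, Kit, Kdr and Vegfa) in AID-JARID2. Among all genes 19.5% were higher there and 17% lower. In SUZ12-AID 6 rose (Pdgfb, Plat, Shb, Kdr, Flt1 and Flt4) and none fell, where 15.1% and 4.05% of all genes did. Nrp1, a coreceptor for VEGF, fell in AID-JARID2 from 90.0 and 99.2 TPM to 9.02 and 7.89 TPM (-3.34 ± 0.10, limma adjusted p = 8.84e-09), and in SUZ12-AID it was at 158 and 198 TPM and then 165 and 161 TPM and was not called. Shb, an adaptor of receptor tyrosine kinases, rose in AID-JARID2 from 15.4 and 15.7 TPM to 46.9 and 55.9 TPM (1.66 ± 0.10, adjusted p = 1.13e-06). Flt4, the receptor of VEGF-C, rose in both lines, by 1.07 ± 0.13 in AID-JARID2 and by 1.27 ± 0.13 in SUZ12-AID (adjusted p = 0.000127 and 0.000244). Pdgfb, Kdr, Flt1 and Flt4 are also known from endothelium. Of the 14 endothelial markers, 12 were higher in SUZ12-AID and 1, Pecam1, was lower, beside 15.1% and 4.05% of all genes. In AID-JARID2, where Flt1 and Flt4 also rose, 4 of them were higher and 2 lower. Whether the listed genes moved together with endothelial cells was not tested.

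The CXCL12 list also holds genes of the adrenomedullin system (Adm, Calcrl, Ramp1, Ramp2 and Ramp3). In this list, 6 of 12 genes rose and none fell in AID-JARID2, where 19.5% of all genes were higher and 17% lower. The genes that rose there included Arrb1, a beta-arrestin that couples to these receptors, from 44.0 and 45.0 TPM to 84.8 and 91.0 TPM (0.97 ± 0.12, limma adjusted p = 0.000191), and Ramp3, from 5.62 and 3.94 TPM to 22.0 and 19.4 TPM (1.92 ± 0.19, adjusted p = 2.92e-05). In SUZ12-AID 2 of the 12 rose and 2 fell, beside 15.1% and 4.05% of all genes. Ramp2, which pairs with the adrenomedullin receptor, rose there from 25.9 and 20.6 TPM to 67.3 and 61.4 TPM (1.44 ± 0.13, adjusted p = 0.000145). Of 43 other chemokine genes only 11 passed the filter. Ccr7 fell in AID-JARID2 from 8.29 and 12.7 TPM to 1.71 and 1.70 TPM (-2.06 ± 0.18, adjusted p = 1.41e-05), and Ccl20 rose from 0 and 0.54 TPM to 7.30 and 10.9 TPM (3.00 ± 0.33, adjusted p = 6.88e-05), on 0 and 2 reads untreated against 33 and 57.

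**Figure D4:**
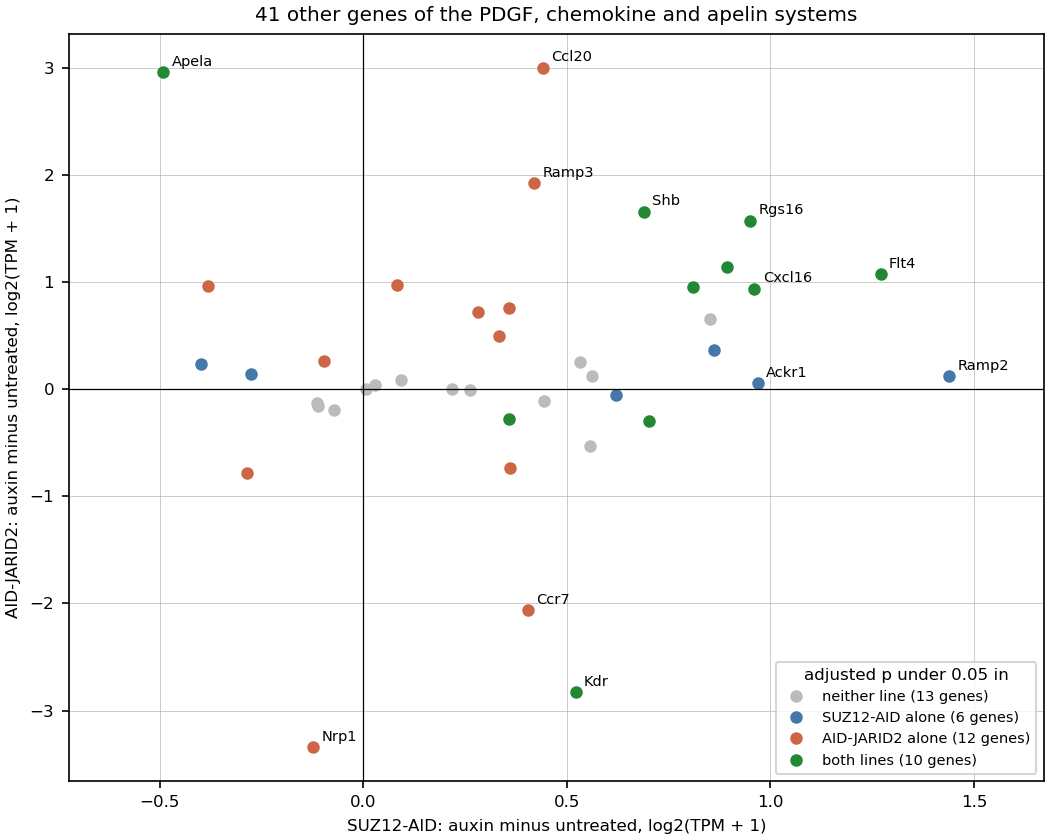
Difference with auxin in SUZ12-AID (x axis) and AID-JARID2 (y axis), both on the log2(TPM + 1) scale, for the 41 listed pathway genes that passed the filter, coloured by the line in which they were called. Apela, at -0.49 and 2.96, and Kdr, at 0.52 and -2.83, lie in opposite quadrants.

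Genes with the most similar pattern were ranked by the root mean square difference of centred log2(TPM + 1) over the 12 libraries, among 10060 genes, for the 5 members whose group means spanned at least 2 log2 units. Closest to Pdgfrb was Adgra2 (0.137), an adhesion receptor, then Dok4 and Igf2. Ackr3 was followed most closely by the noncoding RNA Rubie (0.220), then Col1a1, a collagen gene, and Cfc1, which encodes a coreceptor of Nodal. For Cxcr4 the nearest was Klhl6, at a wider distance (0.325), for Cxcl12 it was Ezr (0.118), and the second was Shb. Apln was closest to Sema6a (0.194), then Rbm47 and Pou5f1, a pluripotency gene, which went from 335 and 316 TPM to 1600 and 1601 TPM in AID-JARID2. These distances describe 12 libraries that share 3 lines, and rest mostly on the change in AID-JARID2.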

How the data were processed

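Polyadenylated RNA of 12 stranded dUTP libraries was measured. The values are TPM as deposited in a single table, made from reads aligned with STAR 2.6.1d to mm10, per the submitters' processing notes. The counting program and gene models were not stated there. Values were used as log2(TPM + 1). A filter of 1 TPM or more in 2 or more libraries left 15663 of 35856 rows, which were fitted in limma 3.58.1 (R 4.3.3) with 1 term per group, moderated by empirical Bayes with a mean trend (6 residual and 3.9 prior degrees of freedom), and p-values were adjusted by Benjamini and Hochberg over all kept genes at 0.05. Effects of auxin, their differences between lines and untreated lines were contrasts of this 1 fit, so all groups share its estimate of spread. Whole reads were recovered from the steps of the values, with 100% of 240300 values above 0 within 0.001 reads of a whole number, and served for depth and for limma-voom as an alternative. Alternatives were pseudocounts of 0.1 and 5, no filter, a filter at 5 TPM, median-of-ratios scaling, quantile normalization, a variance weight per line, each line fitted on its own, a replicate block, limma-voom, and leaving out each library in turn. The fit was tested on simulated reads drawn with the same spread in every line. That test cannot show how the fit does where lines differ in spread. All libraries carry 1 run label, so no batch split could be made. The named genes are the 8 members, listed pathway genes and the 3 nearest patterns among genes with a mean of at least 5 TPM. Members, lists and markers were chosen with earlier results of these data known. Sequences come from the RefSeq table for GRCm38.p6.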

Additional observations from a re-analysis of the deposited data

Results flagged for a closer look

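The effect of auxin on log2(TPM + 1) differed between lines for 16 pairs of gene and comparison, each by the limma contrast of the difference itself, with p adjusted over all genes. The genes were chosen with these data known, so the p-values describe the size of each difference beside the spread. AID-JARID2 minus SUZ12-AID was -1.70 for Pdgfra (adjusted p = 0.000255), -2.46 for Pdgfrb (2.63e-06), -3.27 for Ackr3 (5.11e-06), -2.78 for Cxcr4 (2.04e-05) and -0.734 for Aplnr (0.00302). The same difference was 0.85 for Cxcl12 (adjusted p = 0.00698) and 1.90 for Apln (0.000534). AID-JARID2 minus MTF2-AID was -1.83 for Pdgfra (adjusted p = 0.000124), -3.23 for Pdgfrb (3.54e-07), -4.14 for Ackr3 (9.21e-07), -3.41 for Cxcr4 (4.12e-06), 1.13 for Cxcl12 (0.00124) and 2.75 for Apln (4.1e-05). MTF2-AID minus SUZ12-AID was 0.772 for Pdgfrb (adjusted p = 0.00811), 0.868 for Ackr3 (0.0292) and -0.494 for Aplnr (0.0408). The Ackr3 difference passed no more without SUZ12-AID auxin replicate 1 (0.69) or any 1 of the 4 MTF2-AID libraries (0.81 to 0.93), and the Aplnr difference without any 1 of 8 libraries (-0.50 to -0.49).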

How the results depend on the processing

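Over 22 alternatives, 497 of 528 effects of auxin per gene and line kept their direction and their side of the threshold, 18 lost a call, 5 gained one and 8 changed sign, none of these called. The sign changed for Pdgfra in SUZ12-AID with median-of-ratios scaling (-0.0815) and quantile normalization (-0.11), for Aplnr in SUZ12-AID with the same scalings (-0.0744 and -0.0114), and without 1 library, where Pdgfra in SUZ12-AID ranged from -0.22 to 0.24, Aplnr in SUZ12-AID from -0.13 to 0.16, Pdgfa in AID-JARID2 from -0.0055 to 0.21 and Apln in MTF2-AID from -0.35 to 0.034. Counts in AID-JARID2 stayed at 2 higher and 5 lower in every alternative. In SUZ12-AID, 0 genes were higher with quantile normalization, with a variance weight per line and with every line fitted on its own, and 0 were lower in the last; leaving out 1 library gave 1 to 3 higher and 1 to 2 lower. In MTF2-AID 1 gene, Aplnr, was lower with a variance weight per line, and 0 to 1 without 1 library. The effect differed between MTF2-AID and SUZ12-AID for 1 gene with no filter on low values, 5 with median-of-ratios scaling and 1 to 5 without 1 library. Untreated MTF2-AID and SUZ12-AID differed in 1 to 3 genes without 1 library. Where a library was left out, the lone library was assumed to vary like the other groups; with each line alone, fewer libraries set the spread, and the cause of the other changes was not tested. Replicate numbers did not pair the libraries (correlation of deviations 0.096 in SUZ12-AID, -0.039 in MTF2-AID and 0.008 in AID-JARID2), and with a replicate block 3 genes were higher and 2 lower in SUZ12-AID and 4 effects differed between MTF2-AID and SUZ12-AID, while untreated MTF2-AID and SUZ12-AID differed in 2, with Pdgfa no longer called (0.511). Among the other pathway genes, counts over the alternatives ranged from 1 to 18 higher and 0 to 7 lower in SUZ12-AID and from 10 to 19 and 5 to 8 in AID-JARID2. With pseudocounts of 0.1 and 5, changes of ratios kept their sign except that of Cxcr4 to Cxcl12 in MTF2-AID, which went from -0.058 to 0.061 with a pseudocount of 5, and 23 of 54 moved by more than the spread between libraries, that of Ackr3 to Cxcl12 in AID-JARID2 between -5.91 and -4.04. Precision at low levels is limited by reads, down to 27 for Apln and 36 for Ackr3.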
